A study of Mus musculus with 17 samples.

Results

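Collagens, laminins and the other main proteins of the vascular basement membrane were followed across 17 RNA-seq libraries of microvessels from the mouse brain cortex. The genes were chosen by symbol: 44 collagen chain genes and 16 others (10 laminin chains, the nidogens Nid1 and Nid2, perlecan (Hspg2), agrin (Agrn), fibronectin (Fn1) and Sparc), 60 of the 42687 genes in the count table. The mice were wild type (WT) or APP/PS1, an amyloid model that the sample labels write as APP, and were 10 to 11 months old. All of them received a peptide at 10 mg/kg into the peritoneum every 2 days for 2 weeks. The peptide was gp91-ds-tat, a NOX2 inhibitor, or sgp91-ds-tat, its control. Libraries labelled NOX2 were taken as given the inhibitor and libraries labelled SC as given the control peptide. The groups are written WT_SC (5 libraries, WT, control peptide), WT_NOX2 (5 libraries, WT, inhibitor), APP_SC (2 libraries, APP/PS1, control peptide) and APP_NOX2 (5 libraries, APP/PS1, inhibitor), and replicates are numbered in the order of the samples. The labels' protocol speaks of ipsilateral cortices and of surgery, with no further word on it, and of vessels pelleted through dextran. The labels do not say that the libraries came from separate animals, so a p-value here measures only the spread between these libraries, which may be technical. The promoter of the transgenes and the sex of the mice were not given in the sources used here.

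The basement membrane is a thin sheet of matrix on which endothelial cells sit, and in brain capillaries it is shared with pericytes and with the endfeet of astrocytes. Its frame is a network of type IV collagen and a network of laminins, each laminin being a trimer of an alpha, a beta and a gamma chain, and nidogens, perlecan and agrin link or fill these networks. Fibrillar collagens such as types I and III form fibres outside the basement membrane and in the brain are made mainly by fibroblasts along larger vessels and in the meninges.

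The genes of the main type IV chains, Col4a1 and Col4a2, lie head to head on mouse chromosome 8 and are transcribed in opposite directions from a shared promoter. In RefSeq on GRCm38.p6 their annotated starts overlap by 22 bases, from chr8:11312805-11312826, with Col4a2 on the plus strand and Col4a1 on the minus strand. That stretch is shown first because the counts of the pair are compared below. It is followed by the 150 bases before the annotated starts of Col1a2 (chr6:4505468-4505617, plus strand) and Col3a1 (chr1:45311388-45311537, plus strand), a pair of fibrillar chains. Capitals mark a match to GGGCGG in the shared start, to CCAAT in Col1a2 and to TATAAA in Col3a1.
Col4a1 and Col4a2, shared start: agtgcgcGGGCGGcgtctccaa
Col1a2, upstream: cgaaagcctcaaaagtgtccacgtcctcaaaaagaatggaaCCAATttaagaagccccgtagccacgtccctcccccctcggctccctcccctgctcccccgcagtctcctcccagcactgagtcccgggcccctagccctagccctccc
Col3a1, upstream: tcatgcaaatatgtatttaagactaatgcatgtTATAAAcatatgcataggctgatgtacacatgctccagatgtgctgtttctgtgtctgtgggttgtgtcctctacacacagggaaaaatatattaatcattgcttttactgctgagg
Of the 60 genes, 44 matched the RefSeq promoter table, with 49 windows of 250 bases before a start. Motifs searched on both strands were the CCAAT box (CCAAT), the core of the TATA box (TATAAA) and the GC box bound by Sp1 (GGGCGG), and none of them contains another. CCAAT was found in 15 of the 49 windows (33.8% of the table's 32851 windows held it), TATAAA in 5 (12.4% of all windows) and GGGCGG in 28 (32.7% of all windows). The median GC content was 59.6% in the 49 windows and 52.4% in all windows, and its part in the matches was not tested. Among 5 type IV windows, 3 held CCAAT, 3 held GGGCGG and 0 held TATAAA. Among 8 windows of fibrillar chains the numbers were 3, 6 and 2. A match to such a short word is a description of the letters and not a binding site.

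Total counts were between 7316503 and 17862965 per library. Levels are given as CPM, counts scaled to the library total after TMM correction of that total, and intervals or floors drawn from counts cover counting error only. The tissue label names endothelial cells, pericytes and astrocytic endfeet, and the defining markers of each were present in every library: Cldn5 at 155 to 393 CPM, Pdgfrb at 121 to 208 CPM and Aqp4 at 63.9 to 197 CPM. Neuronal and oligodendrocyte markers were present as well. The 6 neuronal markers summed to 2437 to 4118 CPM and the 6 oligodendrocyte markers to 1439 to 2524 CPM, beside 2631 to 4837 CPM for 8 endothelial markers. The 8 choroid plexus markers, none of them at 0 in any library, summed to 31.0 CPM in WT_SC replicate 1 and to 8294 CPM in WT_SC replicate 4. The 10 fibroblast markers, also with none at 0, summed to 531 to 1483 CPM, and WT_SC replicate 4 was again the highest. Igf2, 1 of these 10, was at 210 to 894 CPM and so weighs heavily in the sums. In such bulk samples, fewer cells of a type and less RNA per cell cannot be told apart.

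No gene of the 60 passed an adjusted p of 0.05 in any of 7 comparisons of genotype and peptide, of which the tests are given further on. The most abundant transcript was that of fibronectin, followed by Sparc and agrin, with the main type IV chains next. Levels per kilobase, which allow a rough comparison of genes, divide by the union of all annotated exons of a gene. That union can be longer than a single transcript, which lowers the level. Per kilobase of exon, Fn1 had 80.1 ± 15.5 CPM (SD, n = 17), Sparc 57.8 ± 11.0, Agrn 45.6 ± 6.26, Col4a1 29.8 ± 3.69, Lamb2 29.1 ± 6.82, Col4a2 28.5 ± 3.65, Col6a1 27.2 ± 4.15 and Lamc1 23.2 ± 3.28. The neighbours Col4a1, Lamb2, Col4a2 and Col6a1 in this order differed by less than 1 SD. Summed per kilobase over a class, the 10 laminin chains came to 102 ± 17.3 CPM, the nidogens, perlecan and agrin to 76.0 ± 11.2 CPM and the 6 type IV chains to 63.6 ± 7.73 CPM. The 11 fibrillar chains came to 34.7 ± 4.92 CPM and the 6 beaded-filament chains of type VI to 35.1 ± 4.52 CPM.

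**Figure D1:**
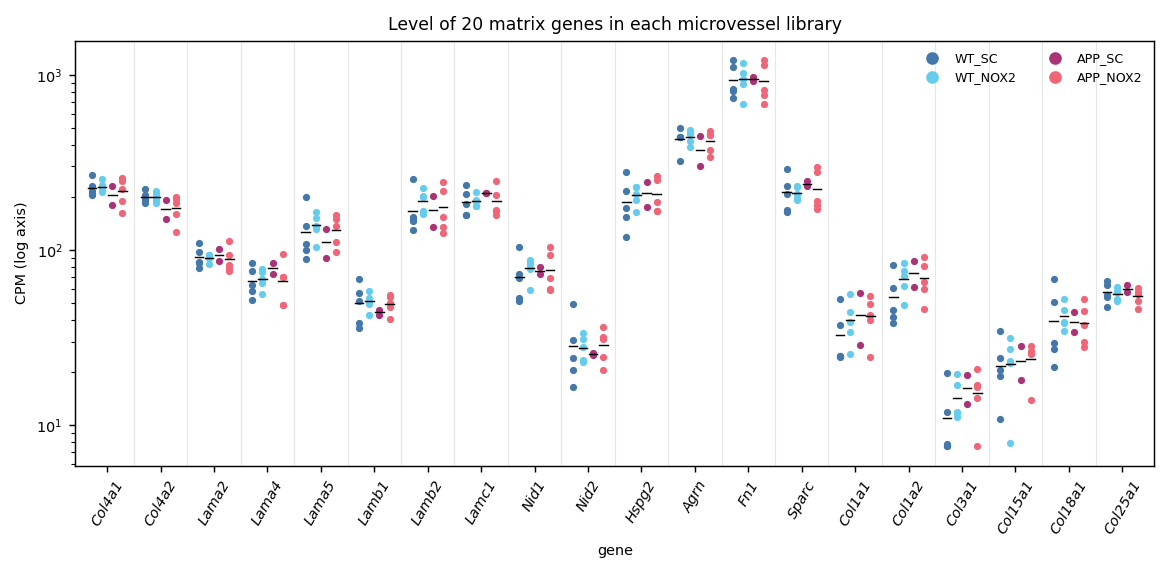
CPM of 20 matrix genes (log axis) in each of the 17 libraries, with points coloured by group and a short bar at each group's mean. Col4a1 stands between 162 and 268 CPM in every library, and the groups overlap for all 20 genes.

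Type IV collagen was represented mainly by its alpha1 and alpha2 chains, which assemble into the most widespread network of basement membranes. Col4a1 measured 206, 209, 231, 268 and 216 CPM in the WT_SC libraries, 227, 253, 234, 221 and 216 CPM in WT_NOX2, 182 and 231 CPM in APP_SC, and 223, 248, 162, 189.9 and 258 CPM in APP_NOX2. All 4 groups overlapped, with the lowest value in APP_NOX2 replicate 3 and the highest in WT_SC replicate 4. Col4a2 measured 184, 189.5, 196, 224 and 205 CPM in WT_SC, 185, 216, 210.1, 193 and 199 CPM in WT_NOX2, 149.9 and 193 CPM in APP_SC, and 184, 195, 126, 160.3 and 199.8 CPM in APP_NOX2. Its lowest and highest libraries were the same as those of Col4a1, and the groups overlapped here too.

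The ratio of the counts of the 2 chains, Col4a1 to Col4a2, lay between 1.05 and 1.29 in all 17 libraries, with a highest value only 1.23 times the lowest, while Col4a1 itself spanned 1.65-fold. Corrected for exon length, the ratio averaged 1.05. In WT the ratio was 1.11, 1.11, 1.18, 1.20 and 1.05 with control peptide and 1.23, 1.17, 1.11, 1.15 and 1.09 with inhibitor. In APP/PS1 it was 1.21 and 1.20 with control peptide and 1.21, 1.28, 1.29, 1.18 and 1.29 with inhibitor. The APP/PS1 libraries lay high in the range: all 7 were above the WT median, and 2 of the 10 WT libraries were above the lowest APP/PS1 library. The mean was 1.14 ± 0.0552 (SD, n = 10) in WT and 1.24 ± 0.0459 (SD, n = 7) in APP/PS1.

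Averaged over the peptides with equal weight, this difference was 0.11 on the log2 scale. An exact permutation of genotype within each peptide, over 5292 assignments, gave a two-sided p of 0.0051. Its statistic was the sum of the APP/PS1 log2 ratios after each peptide's mean was taken off, which does not weight the 2 peptides equally. Benjamini-Hochberg adjustment of the permutation p over the 7 ratios of chains examined gave an adjusted p of 0.0357. The test was chosen after the ratios had been seen. Within the inhibitor groups alone the exact permutation p was 0.0317, and within the control peptide groups, where 2 libraries stand against 5, it was 0.143 with a smallest possible value of 0.0476. The adjusted p depended on single libraries. With 1 library left out it lay between 0.0159 and 0.0794 over 17 repeats, and it was above 0.05 in 10 of them: those without WT_SC replicate 1 or 2, WT_NOX2 replicate 2, 3 or 5, APP_SC replicate 1 or 2, or APP_NOX2 replicate 2, 3 or 5. The difference itself was between 0.10 and 0.12 in all 17 repeats. Microglial markers and the astrocyte marker Gfap, which were higher in APP/PS1 as given with the genotype comparison below, moved with it, and their part in the ratio was not tested.

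**Figure D2:**
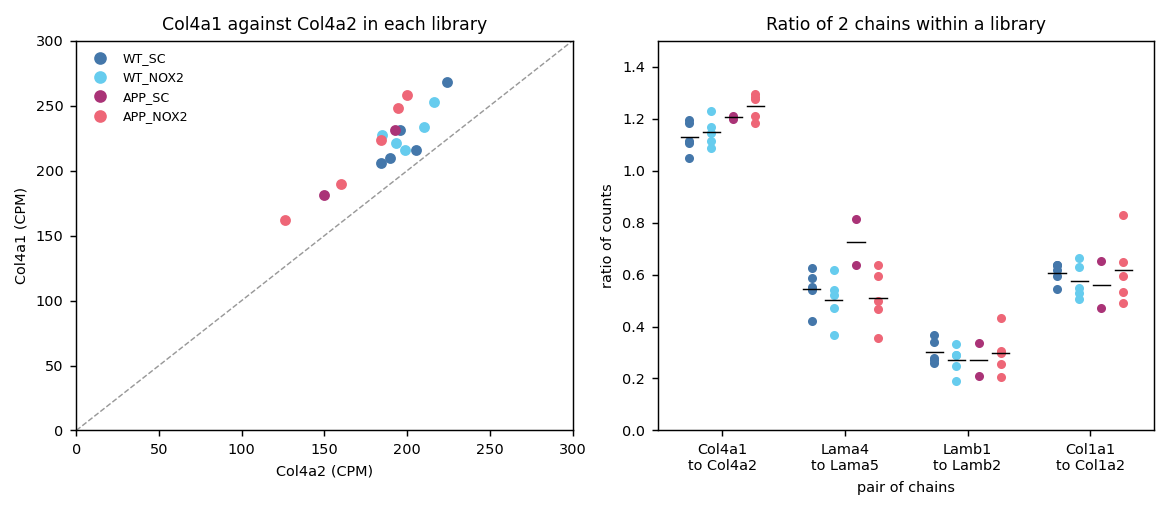
Left, CPM of Col4a1 against CPM of Col4a2, a point per library coloured by group, with a dashed line of equal levels. Right, the ratio of counts of 4 pairs of chains within each library, with a bar at each group's mean. All 17 libraries lie above the line of equal levels, at ratios of 1.05 to 1.29.

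The minor type IV chains were far lower. Col4a5 and Col4a6, which form a network with each other in other tissues, had 11.9 to 25.6 CPM and 6.38 to 15.1 CPM. Col4a3 and Col4a4, known from the glomerular basement membrane, had 2.09 to 11.8 CPM and 3.14 to 13.3 CPM, with the largest spread of this class (SD of the log2 level within groups 0.77 and 0.62). For all 6 type IV chains together the median of that SD was 0.36, against 0.25 over all 18753 genes tested.

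Laminin chains covered all 3 positions of the trimer. Among the alpha chains, Lama5 and Lama4 are the chains of endothelial laminins, and Lama2 and Lama1 are the chains of the outer, astrocytic and meningeal sheets. Lama5 measured 88.7, 101, 138, 202 and 108 CPM in WT_SC, 137, 105, 152, 165 and 131 CPM in WT_NOX2, 89.7 and 132 CPM in APP_SC, and 97.2, 159, 111, 137 and 151 CPM in APP_NOX2. The value of WT_SC replicate 4 was the highest of all 17, and the groups overlapped. Lama4 measured 51.9, 62.8, 76.1, 84.8 and 58.6 CPM in WT_SC, 74.5, 64.5, 55.8, 77.3 and 68.1 CPM in WT_NOX2, 73.1 and 84.1 CPM in APP_SC, and 48.6, 94.3, 70.3, 48.7 and 70.4 CPM in APP_NOX2. APP_NOX2 held both the lowest and the highest library for this chain. Lama2 measured 96.8, 84.5, 85.2, 110.1 and 78.7 CPM in WT_SC, 94.1, 89.7, 93.9, 90.1 and 83.1 CPM in WT_NOX2, 87.0 and 101 CPM in APP_SC, and 78.7, 113, 75.7, 82.2 and 93.8 CPM in APP_NOX2. It was among the steadiest members, with a span of 1.49-fold over the libraries.

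The ratio of Lama4 to Lama5 varied more than that of the type IV pair, from 0.356 in APP_NOX2 replicate 4 to 0.814 in APP_SC replicate 1. Lama2 exceeded Lama4 in every library, by 1.08 to 1.86 times in counts, and per kilobase the mean ratio was 0.999. The other alpha chains, Lama1 and Lama3, had 28.8 to 72.3 CPM and 31.1 to 69.6 CPM.

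Among the beta chains, Lamb2 was above Lamb1 in all libraries, with a ratio of Lamb1 to Lamb2 between 0.189 and 0.433. Lamb2 measured 147, 129, 153, 253 and 150.4 CPM in WT_SC, 203, 168, 225, 201 and 161 CPM in WT_NOX2, 135 and 205 CPM in APP_SC, and 125, 243, 135, 155 and 218 CPM in APP_NOX2. Within WT_SC, replicate 4 stood well above the other libraries. Lamb1 measured 38.3, 35.9, 56.4, 68.6 and 51.1 CPM in WT_SC, 50.7, 48.9, 42.6, 58.5 and 53.5 CPM in WT_NOX2, 45.4 and 42.8 CPM in APP_SC, and 54.2, 49.6, 40.1, 47.1 and 55.4 CPM in APP_NOX2. Both extremes of this chain were WT_SC libraries. Lamb3, a beta chain of epithelial laminins, was near the low end at 0.958 to 2.09 CPM.

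The common gamma chain Lamc1 measured 210.0, 158, 182, 235 and 158 CPM in WT_SC, 189.8, 213, 192, 178 and 177 CPM in WT_NOX2, 212 and 212 CPM in APP_SC, and 169, 207, 166, 159 and 247 CPM in APP_NOX2. The highest library was APP_NOX2 replicate 5, and the groups overlapped. Lamc3, the other gamma chain measured, had 44.4 to 119 CPM. WT_NOX2 replicate 3 was the highest library of both Lamc3 and Lama1.

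The heparan sulphate proteoglycans agrin and perlecan were abundant in each library, and the nidogens had fewer CPM than both. Agrn, which encodes agrin, measured 324, 442, 443, 496 and 443 CPM in WT_SC, 484, 385, 418, 469 and 460.4 CPM in WT_NOX2, 303 and 446 CPM in APP_SC, and 341, 476, 369.9, 455 and 451 CPM in APP_NOX2. It spanned 1.64-fold, with overlap of all groups. Hspg2, which encodes perlecan, measured 119, 153, 217, 279.9 and 173 CPM in WT_SC, 228, 192, 165, 230.1 and 208 CPM in WT_NOX2, 177 and 245 CPM in APP_SC, and 167, 265, 167, 189 and 252 CPM in APP_NOX2. WT_SC held both the lowest and the highest library. Nid1, which encodes the nidogen that joins laminin to type IV collagen, measured 72.7, 52.8, 68.9, 104 and 51.3 CPM in WT_SC, 87.1, 85.6, 78.1, 82.3 and 59.0 CPM in WT_NOX2, 72.5 and 79.9 CPM in APP_SC, and 69.5, 93.3, 59.7, 59.0 and 104 CPM in APP_NOX2. Its values overlapped between all groups.

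Nid2, the second nidogen, measured 16.4, 20.5, 30.5, 49.3 and 24.0 CPM in WT_SC, 33.5, 23.4, 22.8, 30.9 and 27.9 CPM in WT_NOX2, 25.6 and 25.2 CPM in APP_SC, and 24.5, 31.8, 20.6, 36.2 and 31.0 CPM in APP_NOX2. WT_SC again held both extremes. Nid2 shares 437 bases, 8.45% of its exons, with Rtraf on the opposite strand, and Rtraf had 15.3 to 28.1 CPM. The library kit is named as stranded in the labels, but the strand setting of the counting is not given in the sources used here, so reads of the 2 genes in that stretch may not be told apart.

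Fibronectin and Sparc, a secreted glycoprotein that binds collagen, headed the list per kilobase. Fn1 measured 1111, 739, 825, 1215 and 810.3 CPM in WT_SC, 1021, 1169, 947, 884 and 686 CPM in WT_NOX2, 926 and 974 CPM in APP_SC, and 814, 1136, 762, 685 and 1212 CPM in APP_NOX2. Its group means were 940.2 ± 209, 941 ± 178, 950 ± 34.0 and 922 ± 236 CPM (SD, n = 5, 5, 2 and 5), closer to each other than the libraries within a group. Sparc measured 233, 169.9, 209, 290.2 and 164 CPM in WT_SC, 229.6, 232, 192, 210.0 and 198 CPM in WT_NOX2, 247 and 231 CPM in APP_SC, and 179.6, 280.2, 171, 191 and 296 CPM in APP_NOX2. The lowest library for Sparc was in WT_SC and the highest in APP_NOX2.

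The fibrillar collagens had a median SD of the log2 level within groups of 0.32, close to the 0.32 of the laminins. Col1a2, a chain of type I collagen, measured 45.4, 38.2, 60.5, 82.3 and 41.5 CPM in WT_SC, 61.9, 70.6, 76.0, 84.4 and 48.2 CPM in WT_NOX2, 61.3 and 86.5 CPM in APP_SC, and 59.5, 91.6, 46.1, 65.3 and 81.2 CPM in APP_NOX2. Of the 5 WT_SC libraries, 3 were below every WT_NOX2 library and replicate 4 was near the top. Col1a1, its partner, measured 24.7, 24.4, 37.4, 52.5 and 24.7 CPM in WT_SC, 33.9, 44.4, 38.6, 55.9 and 25.5 CPM in WT_NOX2, 28.8 and 56.4 CPM in APP_SC, and 49.4, 54.6, 24.5, 42.4 and 39.7 CPM in APP_NOX2. The same 3 WT_SC libraries were low for Col1a1, as was APP_NOX2 replicate 3. Col3a1, the chain of type III collagen, measured 7.57, 7.74, 11.9, 19.8 and 7.63 CPM in WT_SC, 11.1, 16.9, 11.7, 19.5 and 11.8 CPM in WT_NOX2, 13.3 and 19.4 CPM in APP_SC, and 14.3, 20.9, 7.59, 16.9 and 16.5 CPM in APP_NOX2. The groups overlapped for Col3a1 too, with its lowest values in WT_SC replicates 1, 2 and 5 and APP_NOX2 replicate 3.

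Within a library, Col1a1 was 0.470 to 0.830 of Col1a2 and Col3a1 was 0.154 to 0.259 of Col1a2. Col1a2 was 0.182 to 0.381 of Col4a1 in counts. Summed per kilobase of exon, the 11 fibrillar chains had 27.7 to 43.3 CPM over the libraries and the 6 type IV chains 44.4 to 77.8 CPM. The fibroblast marker sums moved with these chains in part: WT_SC replicates 2 and 5 and APP_NOX2 replicate 3, low for all 3 chains, had the lowest 3 sums of the series (531, 629 and 556 CPM), whereas WT_SC replicate 1, also low, had the third highest (1200.0 CPM). The part of these cells in the collagen levels was not tested here. Of the other fibrillar chains, Col5a1, which nucleates type I fibres, was the highest at 49.7 to 84.5 CPM, and Col2a1, the main cartilage collagen, was the lowest at 1.79 to 3.68 CPM.

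Col15a1 and Col18a1 belong to the multiplexins, collagens with heparan or chondroitin sulphate chains in the basement membrane zone, and the tail of type XVIII is the source of endostatin. Col18a1 measured 27.0, 21.3, 50.7, 68.4 and 29.4 CPM in WT_SC, 38.2, 34.5, 38.7, 45.6 and 52.5 CPM in WT_NOX2, 34.0 and 43.9 CPM in APP_SC, and 29.8, 52.1, 28.0, 37.3 and 44.5 CPM in APP_NOX2. The lowest and highest were both WT_SC libraries, 3.21-fold apart. Col15a1 measured 10.9, 18.9, 24.2, 34.5 and 20.6 CPM in WT_SC, 22.5, 23.1, 7.89, 31.4 and 27.2 CPM in WT_NOX2, 18.1 and 28.2 CPM in APP_SC, and 26.6, 28.2, 13.9, 25.5 and 25.9 CPM in APP_NOX2. Low single libraries stood out for Col15a1: WT_SC replicate 1, WT_NOX2 replicate 3 and APP_NOX2 replicate 3.

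Col25a1 encodes a transmembrane collagen of neurons whose shed ectodomain is found in amyloid plaques. It measured 63.3, 66.7, 55.1, 53.7 and 47.2 CPM in WT_SC, 52.5, 61.7, 50.8, 57.6 and 58.4 CPM in WT_NOX2, 62.7 and 57.6 CPM in APP_SC, and 45.8, 50.9, 57.8, 56.2 and 60.5 CPM in APP_NOX2. With a span of 1.46-fold it was steadier than any type IV or laminin chain, and the groups overlapped. The genotype difference over both peptides was -0.01 ± 0.08 (log2, SE). Among the other transmembrane chains, Col23a1 had the smallest spread of all 60 members (SD of the log2 level within groups 0.13), at 16.4 to 22.9 CPM, and Col13a1 and Col17a1 had 2.30 to 8.74 CPM and 0.491 to 6.33 CPM.

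The type VI chains Col6a1 and Col6a2, which form beaded filaments next to basement membranes, had 81.1 to 147 CPM and 29.5 to 49.2 CPM. Col6a3, Col6a4, Col6a5 and Col6a6, of which the last 3 can take the place of Col6a3, had between 1.96 and 20.4 CPM. Of the FACIT collagens, which sit on the surface of fibres, Col12a1 (51.7 to 76.6 CPM) and Col19a1 (45.0 to 66.4 CPM) were the highest and the steadiest (SD of the log2 level within groups 0.15 and 0.13), and Col9a1 was the lowest (0.327 to 1.45 CPM). Col10a1, the collagen of hypertrophic cartilage, was the 1 member that failed the filter on low counts: it reached 0.654 CPM at most and had a count of 0 in 2 libraries, where the limit that a count of 0 allows, 3 counts, is 0.173 to 0.389 CPM over the libraries.

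**Figure D3:**
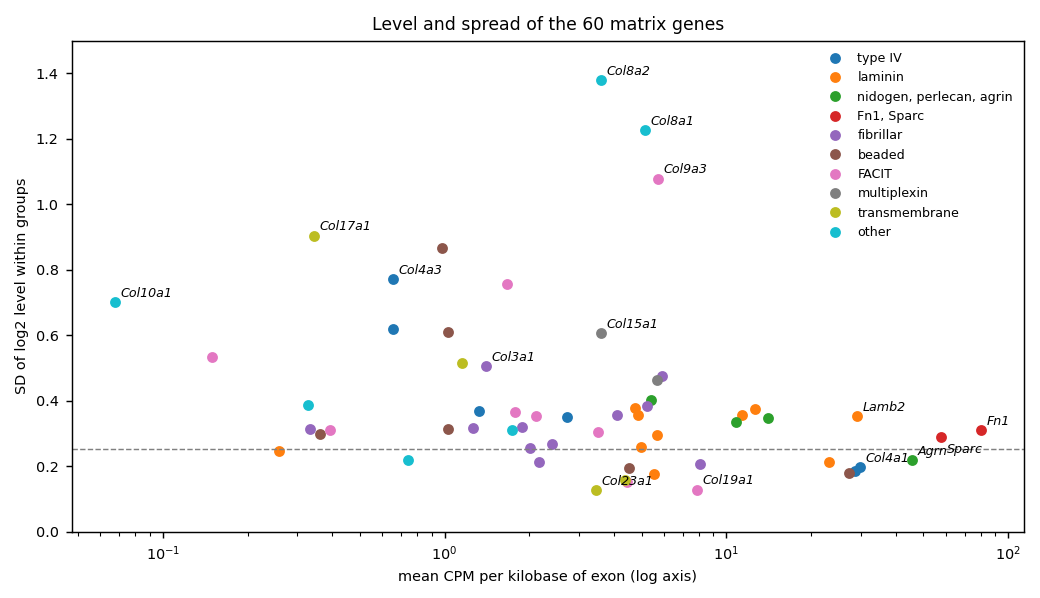
Mean level in CPM per kilobase of exon (log axis) against the SD of the log2 level within groups for the 60 genes, coloured by class, with a dashed line at the median SD of all genes tested (0.25). Col8a1, Col8a2 and Col9a3 lie highest, at 1.23, 1.38 and 1.08.

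Variation within groups was larger for these genes than for most: the median SD of the log2 level within groups was 0.34 over the 59 members that passed the filter and 0.25 over all genes tested. The most variable were Col8a2, Col8a1 and Col9a3, with SDs of 1.38, 1.23 and 1.08. Types VIII and IX are short network-forming and fibre-associated collagens, respectively. Col8a1 measured 12.7, 11.1, 63.2, 116 and 31.9 CPM in WT_SC, 49.9, 12.6, 13.1, 73.6 and 60.5 CPM in WT_NOX2, 40.3 and 13.5 CPM in APP_SC, and 55.0, 41.9, 13.1, 59.3 and 18.1 CPM in APP_NOX2. High and low libraries occurred in every group, so that the groups overlapped over most of a 10.4-fold range. Col8a2 spanned 18.7-fold (2.95 to 55.1 CPM), Col17a1 12.9-fold, Col6a6 10.4-fold and Col9a3 8.56-fold (6.70 to 57.4 CPM).

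These libraries could be ordered by their choroid plexus marker sum. The 5 libraries with the highest sums were WT_SC replicate 4 (8294 CPM), APP_NOX2 replicate 4 (4833), WT_NOX2 replicate 5 (4790), WT_SC replicate 3 (4300) and WT_NOX2 replicate 4 (3738). The same 5 libraries were the highest 5 for Col9a3, Col8a1 and Col17a1. For Col8a2, Col4a3, Col4a4, Col16a1 and Col18a1, 4 of the highest 5 were among them. Col9a3 was 30.0 to 57.4 CPM in these 5 libraries and 6.70 to 27.2 CPM in the other 12. For 11 members, Agrn, Lamb1, Lama4 and Col15a1 among them, it was 3 of the highest 5, and for 25 members it was 2. For 14 members, among them Col4a1, Col4a2, Fn1, Sparc and Lamc1, it was 1, and for Col25a1 and Col10a1 none. The same count over all genes is not given. These numbers describe the order of libraries, which share their depth and composition, and the part of choroid plexus RNA in the levels was not tested.

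**Figure D4:**
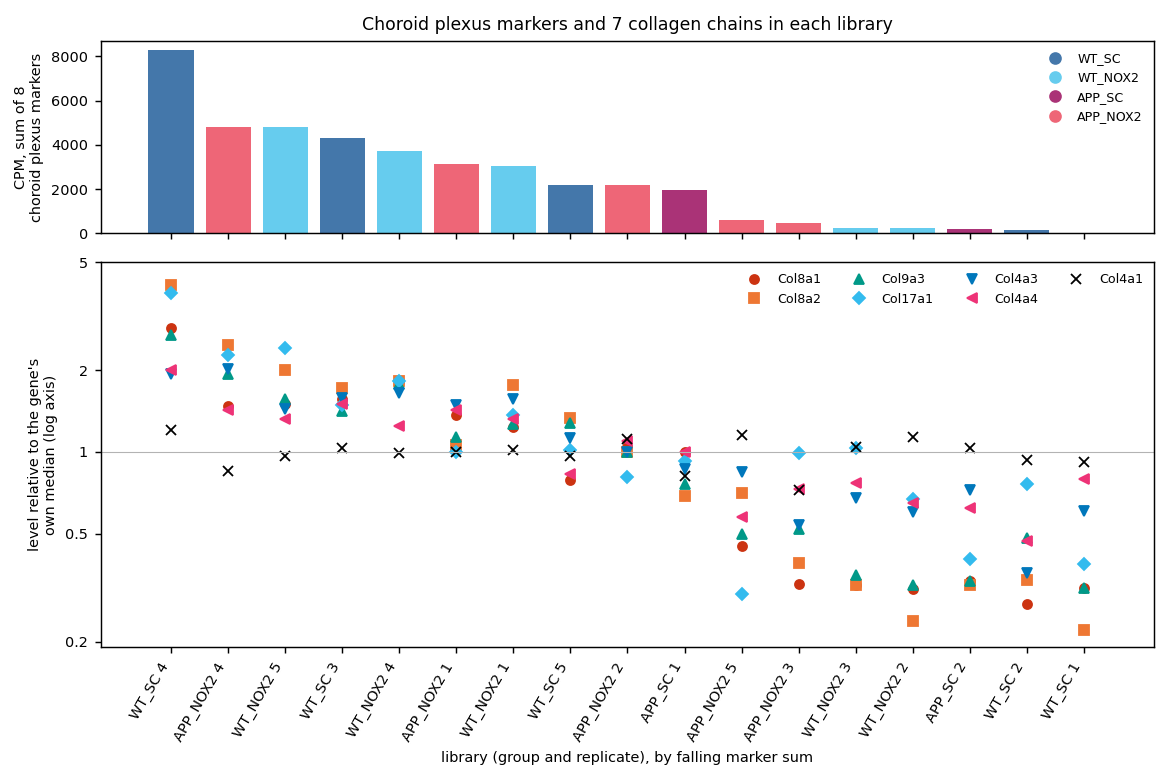
Top, sum of 8 choroid plexus markers in CPM for each library, from highest to lowest, coloured by group. Bottom, level of 7 collagen chains relative to the gene's own median over the 17 libraries (log axis), in the same order. Col8a1, Col8a2, Col9a3 and Col17a1 descend from left to right, whereas Col4a1 stays between 162 and 268 CPM.

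The first comparison asked whether matrix genes differed between APP/PS1 and WT. Over both peptides, the quasi-likelihood test of edgeR, adjusted by Benjamini-Hochberg, called 0 of the 59 members, where it called 0.587% of all genes tested. At an unadjusted p under 0.05 there were 8 members, 7 lower and 1 higher in APP/PS1, with 6.38% of all genes at that level (653 higher and 544 lower). DESeq2 called 0 members and had 8 at an unadjusted p under 0.05. Here and below, the share of all genes at that level is of the edgeR fit on all 17 libraries. It is not given for DESeq2 or for fits that leave out a library, so member counts from those stand without it. The median difference was -0.01 (log2) over the members, of which 25 were higher and 34 lower, and 0.00 over all genes tested.

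Col6a1, the type VI chain, was nearest to the threshold. It measured 129, 127, 133, 114 and 143 CPM in WT_SC, 121, 117, 147, 132 and 127 CPM in WT_NOX2, 92.7 and 92.8 CPM in APP_SC, and 125, 117, 99.5, 125 and 81.1 CPM in APP_NOX2. The 2 APP_SC libraries and 2 of the 5 APP_NOX2 libraries were below every WT library, and the other 3 were within the WT range. The difference was -0.32 ± 0.09 (log2, SE) with an adjusted p of 0.166 by edgeR. DESeq2 gave an adjusted p of 0.0542. The means were 129 ± 10.5 CPM in WT (SD, n = 10) and 105 ± 17.6 CPM in APP/PS1 (SD, n = 7).

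Col22a1, a FACIT collagen of tissue junctions, came next. It measured 3.81, 3.24, 4.26, 3.75 and 5.54 CPM in WT_SC, 2.62, 3.56, 6.01, 4.15 and 4.73 CPM in WT_NOX2, 2.85 and 2.49 CPM in APP_SC, and 3.41, 2.88, 2.28, 2.72 and 3.19 CPM in APP_NOX2. All APP/PS1 libraries were at or below 3.41 CPM, a level that 8 of 10 WT libraries exceeded. The difference was -0.56 ± 0.16 (log2, SE; edgeR adjusted p 0.218), and the lowest count behind it was 21.

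Of the remaining 6 members, the type IV chain Col4a2 was lower by a log2 difference of -0.22 ± 0.09, with an edgeR adjusted p of 0.621, and its partner Col4a1 had -0.10 ± 0.09. Col11a1 (-0.28 ± 0.10), Col26a1 (-0.36 ± 0.14), Col6a4 (-0.65 ± 0.28) and Col19a1 (-0.15 ± 0.07) were also lower, with edgeR adjusted p between 0.575 and 0.745. Col27a1, a fibrillar chain of cartilage, was the 1 that was higher, at 0.25 ± 0.11 (edgeR adjusted p 0.745). By class, 1 of 6 type IV chains, 2 of 6 type VI chains, 2 of 9 FACIT chains, 2 of 11 fibrillar chains and 0 of 10 laminin chains were among the 8. For the main laminins the differences were smaller than their errors, at 0.07 ± 0.13 for Lama4, -0.12 ± 0.16 for Lama5, -0.07 ± 0.15 for Lamb2 and 0.06 ± 0.10 for Lamc1 (log2, SE). The same held for Nid1 (0.03 ± 0.15), Hspg2 (0.07 ± 0.15), Fn1 (-0.01 ± 0.14) and Sparc (0.11 ± 0.13), and Agrn had -0.12 ± 0.10. For the fibrillar chains Col1a1, Col1a2 and Col3a1 it was 0.20 ± 0.20, 0.18 ± 0.17 and 0.29 ± 0.22.

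The number of members at an unadjusted p under 0.05 depended on single libraries, being 4 without APP_SC replicate 1 and 10 without WT_SC replicate 4. Markers of other cells moved with genotype: of 6 microglial markers, all 6 were higher and 4 were called by edgeR, and their sum was 171 to 238 CPM in WT and 205 to 385 CPM in APP/PS1, with none at 0. Of 6 astrocyte markers, 5 were higher, 2 had an unadjusted p under 0.05 and 1 was called: Gfap, at 1.20 ± 0.15 (edgeR adjusted p 0.000125), beside Aqp4 at 0.46 ± 0.17 (edgeR adjusted p 0.487). The astrocyte sum was 2948 to 4359 CPM in WT and 3049 to 5088 CPM in APP/PS1, with none at 0. The 8 choroid plexus markers all had lower estimates in APP/PS1 (median -0.52). The endothelial, pericyte, fibroblast and choroid plexus lists had 0 called and 0 at an unadjusted p under 0.05. The part of microglia, astrocytes or choroid plexus in the members' differences was not tested.

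**Figure D5:**
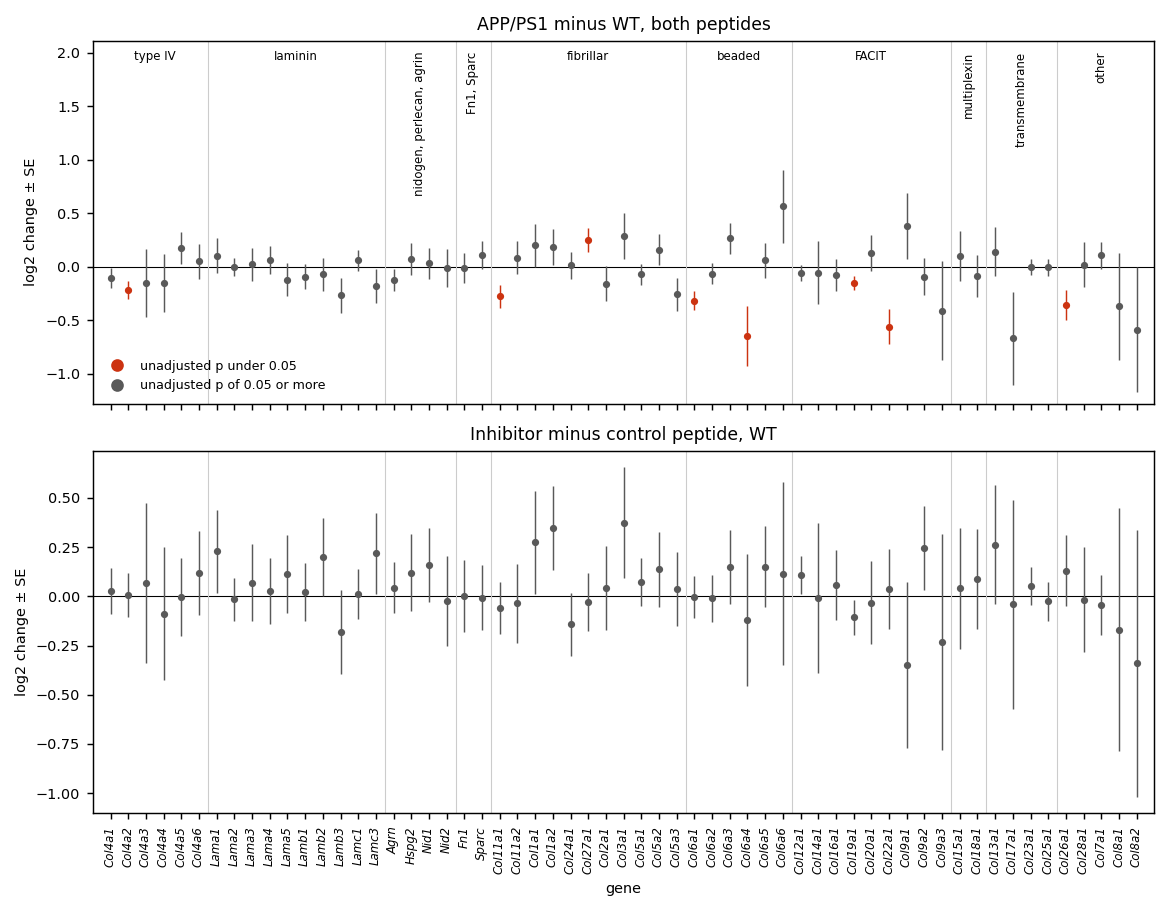
Log2 difference with its standard error for the 59 tested genes, ordered by class, for APP/PS1 minus WT over both peptides (top) and for inhibitor minus control peptide in WT (bottom). The 8 genes at an unadjusted p under 0.05 are red, all of them in the upper panel, and none passed an adjusted p of 0.05.

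With each peptide apart, 0 members were called again. With control peptide the share of all genes called was 0.0533%, and 4 members had an unadjusted p under 0.05 (3.97% of all genes did): Col6a1, Col6a4, Col11a1 and Col22a1, all lower in APP_SC. Col6a1 had the smallest p there, with a log2 difference of -0.48 ± 0.15 and an edgeR adjusted p of 0.67. With 2 APP_SC libraries this number went from 1 without APP_SC replicate 1 to 9 without WT_SC replicate 4. With inhibitor, 0.181% of all genes were called, and 3 members had an unadjusted p under 0.05 (3.38% of all genes did): Col22a1 (-0.53 ± 0.21), Col6a1 and Col26a1, lower in APP_NOX2. That number was 1 without WT_NOX2 replicate 5 and 5 without APP_NOX2 replicate 2. DESeq2 called 0 members in both comparisons and had 4 and 3 at an unadjusted p under 0.05. Among the members that were higher with control peptide, Col1a2 had the smallest p, at 0.46 ± 0.27 (log2, SE; edgeR adjusted p 1.00). It was at 0.16 once the fibroblast marker score was a covariate.

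The second comparison asked what the NOX2 inhibitor did to these genes. In WT, edgeR called 0 members and 0.0% of all genes, and 0 members were at an unadjusted p under 0.05, which 1.34% of all genes were. DESeq2 had 0 members at either level. Type IV chains ran from -0.09 ± 0.34 (Col4a4) to 0.12 ± 0.21 (Col4a6) on the log2 scale with SE, with 0.03 ± 0.12 for Col4a1 and 0.01 ± 0.11 for Col4a2. Laminin chains ran from -0.18 ± 0.21 (Lamb3) to 0.23 ± 0.21 (Lama1), with 0.11 ± 0.20 for Lama5, 0.20 ± 0.20 for Lamb2 and 0.01 ± 0.13 for Lamc1. Nid1 had 0.16 ± 0.19, Hspg2 0.12 ± 0.19 and Agrn 0.04 ± 0.13. Fibrillar chains ran from -0.14 ± 0.16 (Col24a1) to 0.38 ± 0.28 (Col3a1), with 0.35 ± 0.21 for Col1a2 (edgeR adjusted p 1.00) and 0.27 ± 0.26 for Col1a1. The class medians were 0.02 for type IV, 0.05 for laminin and 0.04 for the fibrillar chains.

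The size of these values depended on single libraries. Without WT_SC replicate 1, Hspg2 was at -0.007. Without WT_SC replicate 4, which had the highest fibroblast marker sum, Col1a2 was at 0.55, Col1a1 at 0.51, Col3a1 at 0.71, Lamb2 at 0.40, Nid1 at 0.35, Lama5 at 0.34 and Hspg2 at 0.31. In that fit 4 members had an unadjusted p under 0.05 by edgeR, and the share of all genes at that level is not given for it. With the fibroblast marker score as a covariate, Col1a2 was at 0.12, Col1a1 at 0.05, Col3a1 at 0.18, Lamb2 at 0.01 and Nid1 at -0.02. All 10 fibroblast markers had higher estimates with inhibitor in WT (median 0.16, none at an unadjusted p under 0.05). The score thus runs in part with the inhibitor, and that covariate cannot tell the 2 apart. The part of fibroblasts in the collagen differences was not tested in another way. Of 5 smooth muscle markers, 4 had higher estimates (median 0.42), with Cnn1 at 0.71 and Acta2 at 0.44 and none at an unadjusted p under 0.05. Their sum was 95.3 to 239 CPM in WT_SC and 147 to 266 CPM in WT_NOX2, with none at 0, and their part was not tested. The lowest p among the members that were lower belonged to Col19a1, a FACIT chain, at -0.11 ± 0.09 (edgeR adjusted p 1.00).

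In APP/PS1, edgeR again called 0 members and 0.0% of all genes. Here 1 member, Col7a1, had an unadjusted p under 0.05, with 1.8% of all genes at that level. Col7a1 encodes the anchoring fibril collagen of skin. It measured 4.91 and 7.81 CPM in APP_SC and 9.40, 9.29, 8.35, 8.79 and 7.94 CPM in APP_NOX2, and 6.36, 6.80, 7.10, 8.74 and 8.04 CPM in WT_SC and 6.44, 6.28, 8.79, 8.44 and 6.13 CPM in WT_NOX2. The 2 APP/PS1 groups did not overlap, but APP_SC has 2 libraries and the nearest values of the groups were 7.81 and 7.94 CPM. The share of all genes without such overlap is not given. Both APP/PS1 groups overlapped with the WT groups. The difference was 0.47 ± 0.20 (log2, SE; edgeR adjusted p 1.00), with 0.17 without APP_SC replicate 1 and 0.84 without APP_SC replicate 2. Leaving out APP_SC replicate 2 also raised the number of members at an unadjusted p under 0.05 to 5. DESeq2 called 0 members and had 1 at that level. In the same comparison 8 of 8 choroid plexus markers had higher estimates (median 0.85) and 9 of 10 fibroblast markers lower ones (median -0.13), none at an unadjusted p under 0.05, and their part was not tested. For type IV the differences were 0.07 ± 0.16 (Col4a1) and 0.02 ± 0.15 (Col4a2), and for the main laminin chains they ran from -0.24 ± 0.22 (Lama4) to 0.24 ± 0.27 (Lama5). These rest on 2 APP_SC libraries: without replicate 1 and without replicate 2, in that order, Lama5 was at -0.01 and 0.54, Lamb2 at -0.22 and 0.37, Agrn at -0.09 and 0.46, Col4a1 at -0.09 and 0.25, Col4a2 at -0.15 and 0.21 and Col1a1 at -0.42 and 0.55. The lowest p among the lower members was that of Col28a1, at -0.57 ± 0.33 (edgeR adjusted p 1.00) and levels of 0.651 to 2.54 CPM.

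Over both genotypes, edgeR called 0 members and 0.0% of all genes, and 0 members against 2.11% of all genes had an unadjusted p under 0.05. DESeq2 likewise had 0 at both levels. The estimates were mostly small and above 0: 46 of 59 members were higher with inhibitor, against 9645 of the 18753 genes tested, with medians of 0.07 and 0.00 (log2). All 6 type VI chains, 10 of 11 fibrillar chains and 5 of 6 type IV chains were on that side, and so were 5 of 10 laminin chains. The largest difference from 0 relative to its error was that of Col6a5, at 0.27 ± 0.16 (edgeR adjusted p 1.00), and among the lower members that of Col19a1, at -0.10 ± 0.07. Members vary together across libraries, so their number on a side is not a count of independent results. The 8 choroid plexus markers and 8 of 10 fibroblast markers were on the same side, and their part was not tested.

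The interaction, the inhibitor difference in APP/PS1 minus that in WT, had 0 members and 0.0% of all genes called by edgeR, and 0 members against 0.843% of all genes at an unadjusted p under 0.05. DESeq2 called 0 members and had 1 at an unadjusted p under 0.05. Col7a1 had the smallest p of the positive values, at 0.52 ± 0.25, and Col9a2, a chain of type IX, that of the negative values, at -0.62 ± 0.35 (both log2 with SE, edgeR adjusted p 1.00). With 2 APP_SC libraries, the median SE of a simple genotype difference with control peptide was 0.26 (log2) over the members, against 0.20 with inhibitor.

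Genes that build, cut and bind the matrix gave the same picture of tests. Of 30 genes for collagen modification, secretion and processing, all 30 were tested and 0 were called for genotype over both peptides, with 4 at an unadjusted p under 0.05, 2 in each direction. P4ha1, a subunit of the prolyl 4-hydroxylase that stabilises the collagen helix, was at 0.30 ± 0.14 (edgeR adjusted p 0.762), and Bmp1, a protease that removes the C-propeptides of fibrillar collagens, was at -0.21 ± 0.08 (edgeR adjusted p 0.61). With inhibitor in WT, Lox, which crosslinks collagen, was at 0.47 ± 0.27 (edgeR adjusted p 1.00) and at 0.82 without WT_SC replicate 4, and Adamts3, a procollagen N-proteinase, was at -0.14 ± 0.12.

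Of 23 genes of matrix proteases and their inhibitors, 20 were tested and 0 called, with 1 at an unadjusted p under 0.05 for genotype: Adamts4, an aggrecanase, at 0.28 ± 0.13 (edgeR adjusted p 0.76). Timp4, an inhibitor of metalloproteinases, had -0.14 ± 0.16. With inhibitor in WT the smallest p in each direction belonged to Mmp11, at 0.39 ± 0.24, and Mmp15, at -0.16 ± 0.24. Of 20 receptor genes, 19 were tested, with 0 called and 0 at an unadjusted p under 0.05 for genotype. The integrin chain Itgb3 was at 0.31 ± 0.16 and the integrin chain Itga8 at -0.16 ± 0.09 in that comparison (edgeR adjusted p 0.803 and 0.856). With inhibitor in WT, the syndecan Sdc1 was at 0.45 ± 0.32 and Itgb3 at -0.22 ± 0.21 (edgeR adjusted p 1.00 for both).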

How the data were processed

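Raw counts per Ensembl gene were deposited by the authors as whole numbers for 17 matched libraries, and 20 further columns of values that matched no sample were not used. The submitters' processing notes name cutadapt, STAR, HTSeq and DESeq2, and the builds GRCh37 and mm10, with no version or role. The strand setting of the counting, and how it handled reads shared between genes, were not given in the sources used here. Symbols and exon lengths came from GENCODE vM21 (42250 of 42687 IDs matched a symbol). Ribosomal RNA was depleted before the libraries were made, per the labels' protocols. No 2 of the libraries held identical values over 136 pairs.

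Counts were filtered with filterByExpr (18753 genes kept), scaled by TMM and tested with edgeR 4.0.16 (limma 3.58.1, R 4.3.3), quasi-likelihood, two-sided, with Benjamini-Hochberg adjustment over all genes tested and a threshold of 0.05. An additive model gave genotype over both peptides and inhibitor over both genotypes, and a model with a mean per group gave the 4 simple comparisons and the interaction. All 17 libraries entered each model, because APP_SC has 2. The SE is the log2 difference divided by the root of its F statistic. Log2 levels used a prior count of 2. The labels give no batch. The fitting and the ratio test were tested on simulated data.

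Alternatives were DESeq2 size factors in edgeR, the DESeq2 1.42.0 Wald test, no filter on low counts, a fibroblast marker score as covariate, only the 2 groups compared, total counts as library size for class levels, and each of 17 libraries left out. The ratios of chains were tested by exact permutation, a test added after the ratios were seen. Genes given in every library were 20 listed members, and each comparison adds the member with the smallest p in each direction. For genotype over both peptides all members at an unadjusted p under 0.05 are given. Col6a1, Col22a1, Col7a1 and Col8a1 were given in every library after their values were seen. Members, gene lists and named genes were chosen with earlier results of these data known.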

Additional observations from a re-analysis of the deposited data

Results flagged for a closer look

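Of 81 groups of 5 libraries examined (20 genes and 7 ratios in 3 groups), 2 held a library whose gap to its nearest neighbour, divided by the range of the group, was above the critical value of 0.71. About 1 in 20 groups would do so by chance, which is 4.05 of 81.

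Lamb2, the laminin beta2 chain, was at 253 CPM in WT_SC replicate 4, and the other 4 libraries of that group lay between 129 and 153 CPM (gap over range 0.805). The same library had the highest choroid plexus and fibroblast marker sums of the series, 8294 and 1483 CPM.

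Col15a1, a multiplexin of the basement membrane zone, was at 13.9 CPM in APP_NOX2 replicate 3, and the other 4 libraries of that group lay between 25.5 and 28.2 CPM (gap over range 0.811). The fibroblast marker sum of that library was 556 CPM, the lowest but 1 of the series.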

How the results depend on the processing

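The number of members called stayed at 0 in all 151 alternative counts over the 7 comparisons, each for 1 comparison under 1 alternative. Of 686 gene values given with a test and refitted under an alternative, 682 kept their direction. The 4 that did not were all of inhibitor in WT: Adamts3 (-0.14) was at 0.00134 with the fibroblast covariate, and Mmp15 (-0.16) was at 0.0727 and Itgb3 (-0.22) at 0.0299 without WT_SC replicate 4, and Mmp15 was also just above 0 without WT_NOX2 replicate 3. Over all fits leaving out 1 library, Mmp15 ran from -0.30 to 0.07 and Itgb3 from -0.35 to 0.03. Of 1257 refitted values of differences given without a test, 1240 stayed within 1 SE, and all 10 class levels stayed within 1 SD on total counts. Over the fits leaving out 1 library, the genotype difference of the ratio of Lamb1 to Lamb2 ran from -0.20 to 0.14, and that of Col1a1 to Col1a2 from -0.14 to 0.10 (log2). For Col1a2 to Col4a1 it was 0.37 with an adjusted exact permutation p of 0.195, and 0.42 with 0.045 without WT_NOX2 replicate 4. That was the only 1 of the 17 repeats with an adjusted p under 0.05, and the difference ran from 0.32 to 0.42 over them. The causes were not tested. No paired analysis was possible because the labels give no number that pairs libraries. The precision of the APP/PS1 comparisons with control peptide is limited by 2 libraries, and that of Col9a1, Col17a1, Col28a1 and Col10a1 by counts below 10 in some libraries.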

Other observations

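Single libraries carried many of the extremes. WT_SC replicate 4 was the highest of 17 libraries for 21 of the 60 members, among them Col4a1, Col4a2, 4 laminin chains, Hspg2, Agrn and Fn1. WT_SC replicate 1 was the lowest for 13 members, APP_NOX2 replicate 3 for 11 and WT_SC replicate 2 for 10. The WT group with control peptide thus held the highest library and 2 of the 3 libraries that were most often lowest. The fibrillar chains differed in this: 4 of 11 were highest in APP_NOX2 replicate 4, 3 in APP_NOX2 replicate 2 and 0 in WT_SC replicate 4.

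WT_NOX2 replicate 3 combined high and low extremes. It was the highest library for Lama1 (72.3 CPM) and Lamc3 (119 CPM), and for Col6a1 (147 CPM), and it was the lowest for Col15a1 (7.89 CPM). Its fibroblast marker sum was the second highest of the series at 1321 CPM, and its choroid plexus marker sum was 242 CPM. Igf2 gave 736 CPM of the fibroblast sum. Dcn (59.5 CPM) and Lum (13.5 CPM) were above their medians over the libraries (56.3 and 11.6 CPM). Slc47a1 (1.70 CPM) was below its median (2.99 CPM).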
